A study of Homo sapiens with 9 samples.

Results

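Scramble control (SC) MDA-MB-231 cells were set against cells carrying a hairpin to TRPV4, and 27 of the 60664 genes in the count tables had their peak in SC cells grown at a viscosity of 8 cP. A gene was taken into this set when its mean in SC cells at 8 cP was at least 1 CPM (the gene's count divided by the sample's total and multiplied by 1000000) and at least 1.2 times both the SC mean at 0.77 cP and the shTRPV4 mean at 8 cP. In addition, the lowest SC replicate at 8 cP had to lie above the highest replicate of both other groups. The set thus holds genes that were higher in the thickened medium than in the base medium and lower again in TRPV4 knockdown cells kept in the same thickened medium. The genes were thus chosen by their measured CPM values, so their differences from SC cells at 8 cP are given as a description with no test.

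MDA-MB-231 is a human triple-negative breast cancer line with mesenchymal-like features. Bulk RNA sequencing was carried out on 9 samples in 3 groups of 3, all collected at day 6 and all carrying a lentiviral hairpin kept under puromycin selection. SC cells (genotype WT, scramble RNA) were cultured at 0.77 cP, the viscosity of the base medium, or at 8 cP, reached by adding methylcellulose, and shTRPV4 cells (TRPV4 knockdown) were cultured at 8 cP. Values of the groups are listed in the order SC 0.77 cP, SC 8 cP and shTRPV4 8 cP throughout. The knockdown was thus stable from the start of the culture, and shTRPV4 cells at 0.77 cP were not analysed here, so that an effect of the hairpin in the base medium and an interaction of hairpin and viscosity were not tested. Neither the labels nor the methods say whether replicates were separate cultures, so p-values measure only the spread between these samples, which may be technical. In bulk samples fewer cells of a type and less RNA per cell cannot be told apart.

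Total counts ran from 64571681 to 103518036 per sample. The genes of the set received 43 to 5444 counts per sample. TRPV4 (ENSG00000111199, chr12:109783087-109833406, minus strand) was measured at 0.459 ± 0.0547 CPM in SC cells at 0.77 cP, at 0.456 ± 0.191 CPM in SC cells at 8 cP and at 0.0783 ± 0.0656 CPM in shTRPV4 cells (mean ± SD, n = 3), and every shTRPV4 replicate lay below every SC replicate. Of markers of other cells, the summed level of 10 leukocyte and endothelial genes was 8.26 to 10.4 CPM in SC cells at 0.77 cP, 7.12 to 7.33 CPM in SC cells at 8 cP and 4.38 to 5.23 CPM in shTRPV4 cells, with PTPRC at 0.146 CPM or less in each group mean. Most of this sum came from PECAM1 (5.01, 2.73 and 2.21 CPM) and KDR (3.49, 3.89 and 2.14 CPM). Summed mesenchymal markers stood at 5974 to 6155 CPM in SC cells at 8 cP and summed luminal and epithelial markers at 717 to 813 CPM. Most of the luminal and epithelial sum came from KRT19 and CLDN4, with means of 577 and 168 CPM in SC cells at 8 cP. EPCAM and GATA3 were also measured, at lower levels, whereas ESR1, PGR and FOXA1 were near 0. Of the mesenchymal markers, SPARC had a mean of only 0.89 CPM in SC cells at 8 cP. The part of these markers in the levels of the set was not tested.

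TRPV4 is a calcium-permeable cation channel of the plasma membrane that opens on cell swelling, membrane tension, heat and lipid messengers. Calcium that enters through such channels reaches kinases, phosphatases and transcription factors such as NFAT, and in adherent cancer cells calcium signalling takes part in adhesion, protrusion and migration. Thick extracellular fluid loads the cell edge mechanically, and cells meet this load through actin, ion transporters and membrane tension. The genes of the set belong to no single pathway. They encode matrix proteases (MMP1, ADAMTS3, ADAMTS17), adhesion and membrane organising proteins (FAT3, PCDH7, NLGN1, TSPAN12), transporters and channel-associated proteins (SLC7A11, SLC16A7, SLC10A7, CLCN5, CACHD1, NALF1), a growth factor, a hormone receptor and signalling proteins (EGF, PRLR, GAREM1, PDE9A), enzymes and intracellular proteins (such as LIPT2, B4GALNT1, CCPG1, TRIM59, DEPDC7) and non-coding or unclassified transcripts (HHLA3-AS1, FAM225B, ENSG00000275496, ENSG00000279348).

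RefSeq promoter windows (GRCh38.p14) matched 18 of the 27 genes. The 250 bases before the transcription start are shown for 5 of the 6 genes called lower in shTRPV4 cells at 8 cP than in SC cells at 0.77 cP. FAT3, the other of these genes, had no entry. Each is written 5′ to 3′ on the strand of its gene, with matches to the searched motifs in capitals.
SLC16A7, chr12:59595779-59596028, plus strand: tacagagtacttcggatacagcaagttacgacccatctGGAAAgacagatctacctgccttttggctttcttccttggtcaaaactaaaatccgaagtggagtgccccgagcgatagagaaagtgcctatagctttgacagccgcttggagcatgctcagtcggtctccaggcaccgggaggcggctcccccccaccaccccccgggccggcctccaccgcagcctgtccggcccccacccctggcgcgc
NLGN1, chr3:173395702-173395951, plus strand: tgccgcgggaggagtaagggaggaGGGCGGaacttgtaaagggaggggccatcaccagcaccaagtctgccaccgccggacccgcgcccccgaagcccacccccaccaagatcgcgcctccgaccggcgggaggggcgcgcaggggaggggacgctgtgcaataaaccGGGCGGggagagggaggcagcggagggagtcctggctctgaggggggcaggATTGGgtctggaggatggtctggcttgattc
EGF, chr4:109912633-109912882, plus strand: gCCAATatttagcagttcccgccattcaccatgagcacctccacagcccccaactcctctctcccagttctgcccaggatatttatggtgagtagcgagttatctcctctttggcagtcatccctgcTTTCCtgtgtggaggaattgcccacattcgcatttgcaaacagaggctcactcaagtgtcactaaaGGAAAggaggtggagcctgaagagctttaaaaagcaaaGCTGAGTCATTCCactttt
NALF1, chr13:107867497-107867746, minus strand: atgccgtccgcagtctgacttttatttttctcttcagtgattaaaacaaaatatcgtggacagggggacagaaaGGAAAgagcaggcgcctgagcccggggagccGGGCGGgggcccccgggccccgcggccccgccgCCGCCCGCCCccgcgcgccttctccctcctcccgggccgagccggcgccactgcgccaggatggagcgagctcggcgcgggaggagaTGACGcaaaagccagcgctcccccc
PCDH7, chr4:30720119-30720368, plus strand: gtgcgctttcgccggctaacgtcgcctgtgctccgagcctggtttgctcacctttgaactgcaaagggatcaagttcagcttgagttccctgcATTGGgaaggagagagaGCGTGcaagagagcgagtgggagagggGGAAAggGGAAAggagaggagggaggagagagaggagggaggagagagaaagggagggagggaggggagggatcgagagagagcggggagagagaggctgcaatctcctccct

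For SLC16A7 and NLGN1 the first of 2 RefSeq entries is shown. Motifs were searched as plain letters on both strands. In the EGF window an AP-1 match (TGANTCA, found as TGAGTCA) stood 17 to 11 bases before the start and overlapped a match to the antioxidant response letters on the other strand (19 to 11 bases) and a TEAD match (found as CATTCC, 12 to 7 bases). The NALF1 window held a cyclic AMP response element core (TGACG) 25 to 21 bases before the start, and the PCDH7 window held a pair of NFAT-type matches (GGAAA) 113 to 109 and 106 to 102 bases before it. In the SLC16A7 window a single GGAAA, 212 to 208 bases before the start, was the only match. The NLGN1 window held GC boxes (GGGCGG) and a reversed CCAAT box. A match is a description of these letters, not a site.

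Over the 18 genes with an entry, the letters for NFAT were in 61.1% of genes against 60.7% of all 27305 genes with a promoter entry. AP-1 letters were in 16.7% against 8.06% (CLCN5, EGF and PRLR), and TGACG in 33.3% against 24.9%. TEAD letters (GGAATG) were in 16.7% against 14.3%, the amino acid response letters (TGATGNAA) in 5.56% against 3.89%, and the antioxidant response letters (TGACNNNGC) in 5.56% against 13.2%. Xenobiotic response letters (GCGTG) were in 38.9% against 36.2%, the E-box (CACGTG) in 11.1% against 7.73%, and the GC box in 55.6% against 46.2%. CCAAT was in 33.3% against 37% and TATAAA in 11.1% against 13%. With 18 genes, 1 gene makes 5.56%, and no motif was shared by the whole set. The median GC content was 62.8% over the 23 windows of the set and 58% over all 35116 windows.

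Of 13016 genes with at least 1 CPM in SC cells at 8 cP, 2504 had their highest mean there. At least 1.2 times both other means was reached by 59 of these, and 27 of the 59 had no overlap between replicates, whereas 32 overlapped. The 27 were 0.207% of the 13016 genes. The same limits with the groups exchanged gave 946 genes with their peak in SC cells at 0.77 cP, 875 with their peak in shTRPV4 cells at 8 cP and 148 with their lowest level in SC cells at 8 cP. In the plot of ratios, the genes of the set lie in the corner above both limits. They share it with the 32 genes whose replicates overlapped, so the plot alone does not set them apart.

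**Figure D1:**
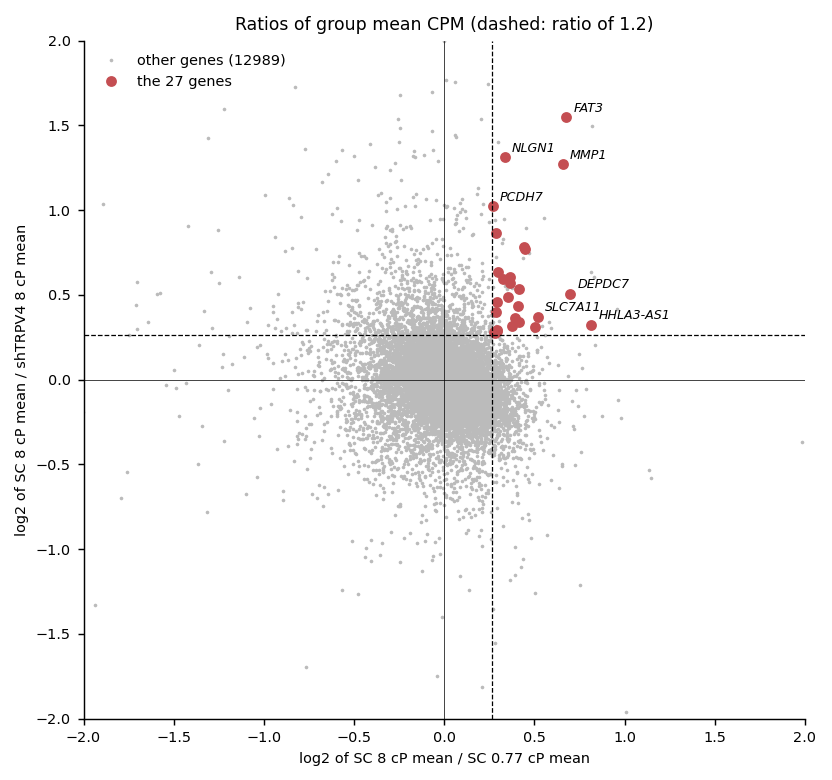
Each point is a gene with at least 1 CPM in SC cells at 8 cP. The horizontal axis is the log2 ratio of the SC mean at 8 cP to the SC mean at 0.77 cP, the vertical axis the log2 ratio of the SC mean at 8 cP to the shTRPV4 mean at 8 cP, and dashed lines mark the ratio of 1.2 (22 genes lie outside the plotted range of 2 in either direction). The 27 genes (red) lie above both limits, as do 32 genes outside the set whose replicates overlapped. Among the 27, FAT3, with ratios of 1.6 and 2.93, lies highest.

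The ratio of the SC means at 8 and 0.77 cP ran from 1.21 to 1.76 (median 1.29), and that of the SC to the shTRPV4 mean at 8 cP from 1.21 to 2.93 (median 1.40). For 18 genes the ratio to shTRPV4 cells was the larger, for 9 genes that to the base medium. PCDH7, with a smaller ratio of 1.205, lay just inside the limit. Just outside lay CDH4, another cadherin, with group means of 69.6, 83.5 and 66.5 CPM, and MAN2A1, a Golgi mannosidase, with 71.4, 86.9 and 72.5 CPM. Both met every other criterion and had smaller ratios of 1.19964 and 1.19919.

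The separation between samples was narrow for many genes. The lowest SC replicate at 8 cP stood 1.00 to 1.22 times above the highest sample of the other groups (median 1.07), and for 17 genes it stood within 1.1 times of it. Replicate 3 of SC cells at 8 cP was the highest of its group for 19 genes (70.4%, against 36.6% of all genes with at least 1 CPM in that group), and replicate 1 of shTRPV4 cells for 18 genes (66.7% against 45.7%). Without SC replicate 3 at 8 cP the rule gave 30 genes and kept 19 of the 27. The part of these replicates in the values was not tested. Under removal of each of the 9 samples in turn, 13 genes met the rule every time, namely FAT3, MMP1, DEPDC7, CACHD1, SLC16A7, ADAMTS3, SLC7A11, GAREM1, LIPT2, SLC10A7, NLGN1, B4GALNT1 and HHLA3-AS1. Removing a sample cannot make separate replicates overlap, so only the limits on fold and mean level could fail here. The count thus says nothing on how narrow the separation was.

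**Figure D2:**
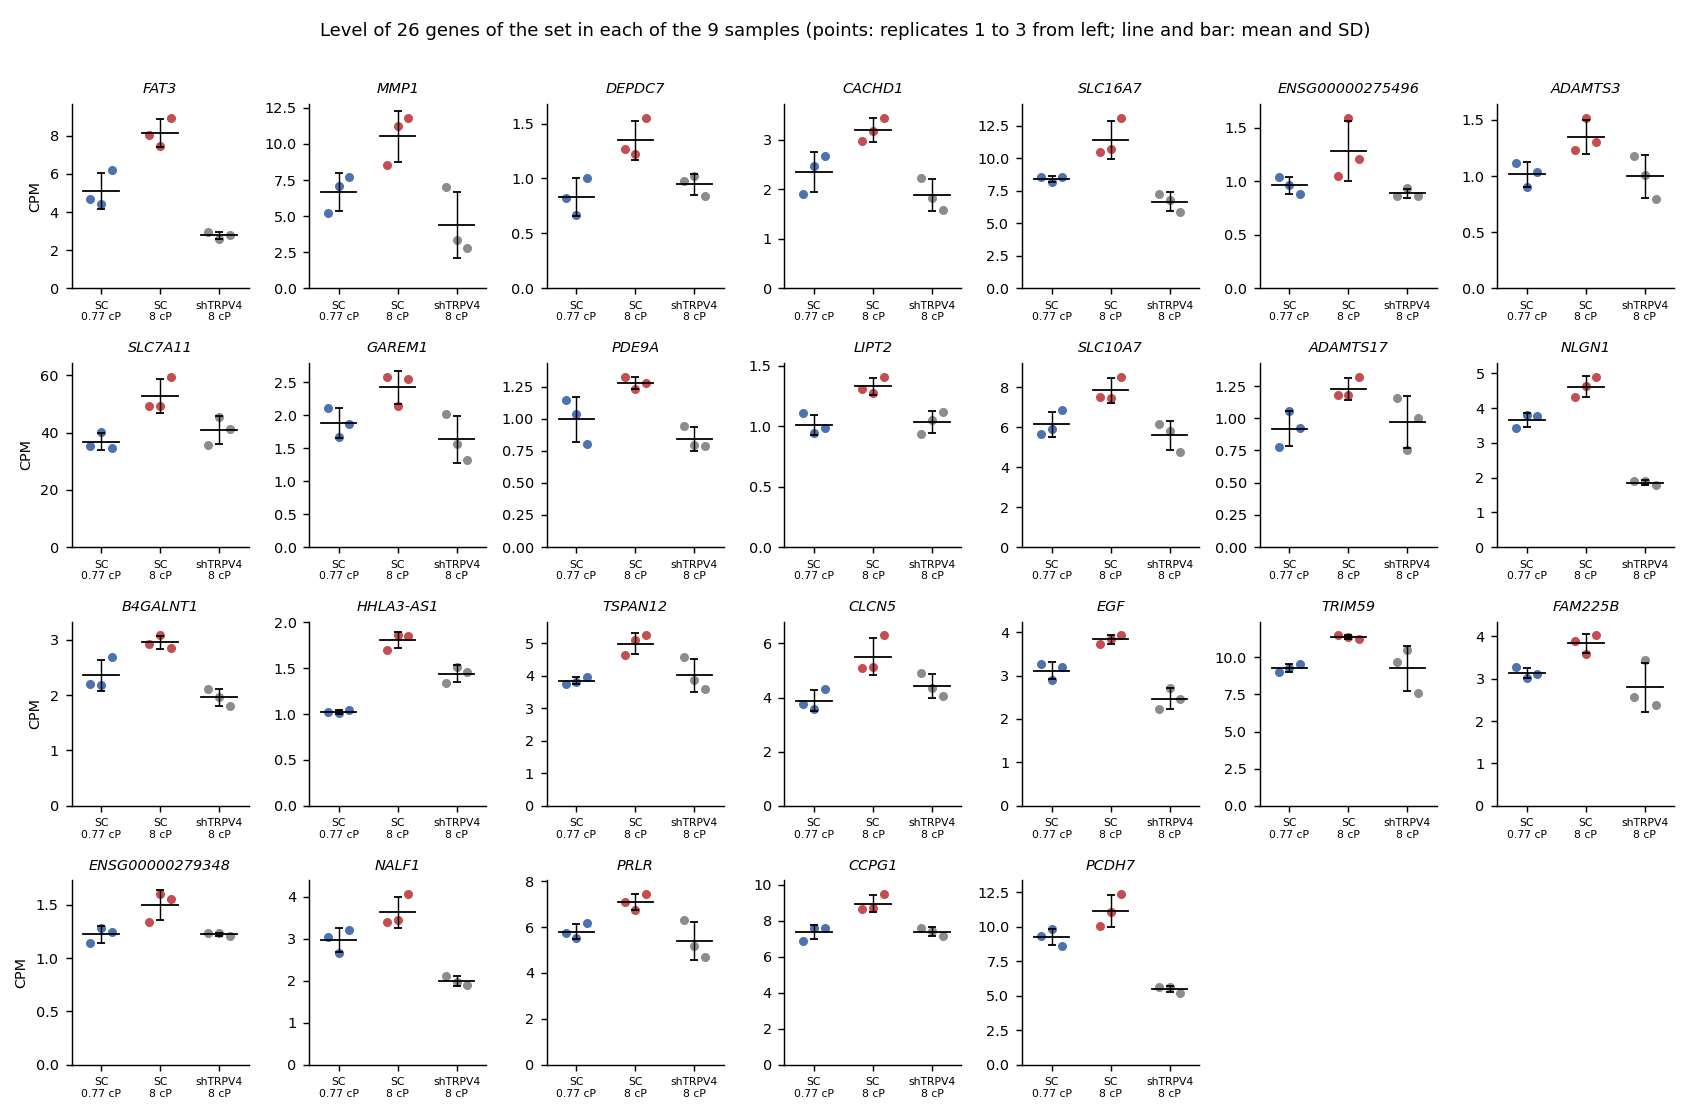
Each panel shows 1 of 26 genes of the set, with the level in CPM on the vertical axis (starting at 0) and the 3 groups on the horizontal axis. Points are replicates 1 to 3 from left to right, and the line and bar are the mean and SD. In every panel the 3 red points of SC cells at 8 cP lie above the other 6 points, as the rule requires, while the order of the other groups differs from gene to gene.

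Most genes of the set were lowly expressed. Mean levels in SC cells at 8 cP ran from 1.23 to 52.8 CPM (median 3.83), with 8 genes under 2 CPM and 6 above 10 CPM. Divided by the summed length of each gene's exons, the level was high in the set for SLC7A11 (5.47 CPM per kb), MMP1 (3.84 CPM per kb) and HHLA3-AS1 (3.14 CPM per kb). FAT3, long in its exons, came to 0.415 CPM per kb and ADAMTS17 to 0.146 CPM per kb. The levels per length thus spanned a wide range within the set.

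Among the matrix proteases, MMP1, the interstitial collagenase that cleaves fibrillar collagen, had the largest ratios. MMP1 (ENSG00000196611, chr11:102789401-102798160, minus strand) was measured at 5.21, 7.08 and 7.74 CPM in SC cells at 0.77 cP, at 8.51, 11.3 and 11.8 CPM in SC cells at 8 cP and at 6.99, 3.35 and 2.76 CPM in shTRPV4 cells at 8 cP. The SC means thus stood in a ratio of 1.58, and the SC mean at 8 cP was 2.41 times the shTRPV4 mean. Replicate 1 of shTRPV4 cells stood apart from replicates 2 and 3 and within the range of SC cells at 0.77 cP.

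The other proteases of the set belong to the ADAMTS family of secreted metalloproteases. ADAMTS3 (ENSG00000156140, chr4:72280969-72569221, minus strand), which removes the amino-terminal propeptide of procollagen, gave 1.12, 0.898 and 1.03 CPM in SC cells at 0.77 cP, 1.23, 1.52 and 1.30 CPM in SC cells at 8 cP and 1.18, 1.01 and 0.798 CPM in shTRPV4 cells at 8 cP. ADAMTS17 (ENSG00000140470, chr15:99971437-100342005, minus strand), a protease linked to fibrillin-rich matrix, gave 0.779, 1.05 and 0.927 CPM, then 1.18, 1.18 and 1.32 CPM, and then 1.16, 0.753 and 0.998 CPM in the same order of groups. Both genes were near 1 CPM, and the highest shTRPV4 replicate came close to the lowest SC replicate at 8 cP.

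The adhesion genes of the set had ratios of SC to shTRPV4 cells at 8 cP from 1.24 (TSPAN12) to 2.93 (FAT3). FAT3 (ENSG00000165323, chr11:92224818-92896473, plus strand), a giant atypical cadherin related to the fly protein Fat, was measured at 4.69, 4.41 and 6.20 CPM in SC cells at 0.77 cP, at 8.03, 7.46 and 8.95 CPM in SC cells at 8 cP and at 2.96, 2.60 and 2.79 CPM in shTRPV4 cells. The SC mean went from 5.10 ± 0.963 CPM at 0.77 cP to 8.15 ± 0.748 CPM at 8 cP, a ratio of 1.6, and stood 2.93 times above the shTRPV4 mean of 2.78 ± 0.183 CPM (SD, n = 3). No group overlapped another.

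PCDH7 (ENSG00000169851, chr4:30720369-31146805, plus strand), a non-clustered protocadherin of cell contacts, gave 9.33, 9.82 and 8.61 CPM in SC cells at 0.77 cP, 10.0, 11.1 and 12.4 CPM in SC cells at 8 cP and 5.65, 5.59 and 5.20 CPM in shTRPV4 cells. The SC groups lay close together, with a ratio of 1.21, whereas the shTRPV4 samples lay far below both (ratio 2.03). NLGN1 (ENSG00000169760, chr3:173396284-174294372, plus strand), a neuroligin that binds neurexins across synapses and is also expressed outside neurons, gave 3.42, 3.79 and 3.77 CPM, then 4.31, 4.63 and 4.91 CPM, and then 1.89, 1.89 and 1.79 CPM in the same order. Its SC mean at 8 cP was 1.26 times that at 0.77 cP and 2.49 times the shTRPV4 mean, again with 3 separate groups. TSPAN12 (ENSG00000106025, chr7:120787320-120858402, minus strand), a tetraspanin that assists Norrin and Frizzled signalling, differed from these, with 3.76, 3.83 and 3.96 CPM, 4.65, 5.09 and 5.25 CPM, and 4.57, 3.88 and 3.60 CPM. Its shTRPV4 replicates surrounded the SC replicates at 0.77 cP, and replicate 1 came close to the SC replicates at 8 cP.

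Transporters formed a further group of the set by role. SLC7A11 (ENSG00000151012, chr4:138164097-138242349, minus strand), the cystine and glutamate exchanger that feeds glutathione synthesis, had the highest level of the set, with 35.4, 40.2 and 34.8 CPM in SC cells at 0.77 cP, 49.3, 49.4 and 59.5 CPM in SC cells at 8 cP and 35.6, 45.5 and 41.3 CPM in shTRPV4 cells. The ratios were 1.43 and 1.29, and the other groups overlapped each other. SLC16A7 (ENSG00000118596, chr12:59596029-59789855, plus strand), the monocarboxylate transporter MCT2 with a high affinity for pyruvate, gave 8.56, 8.15 and 8.57 CPM, then 10.5, 10.7 and 13.1 CPM, and then 7.27, 6.83 and 5.85 CPM. All 3 groups were separate, with ratios of 1.36 and 1.72.

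SLC10A7 (ENSG00000120519, chr4:146253975-146522372, minus strand), a Golgi membrane protein of the bile acid transporter family that takes part in calcium regulation and glycosylation, gave 5.67, 5.88 and 6.87 CPM, 7.50, 7.47 and 8.53 CPM, and 6.18, 5.80 and 4.77 CPM. CLCN5 (ENSG00000171365, chrX:49922596-50099235, plus strand), the endosomal chloride and proton exchanger ClC-5, gave 3.76, 3.59 and 4.32 CPM, 5.10, 5.12 and 6.30 CPM, and 4.92, 4.35 and 4.05 CPM. In CLCN5 the larger ratio was that between the SC groups (1.42, against 1.24 to shTRPV4 cells), and in SLC10A7 that to shTRPV4 cells (1.40, against 1.28). In both, SC cells at 0.77 cP and shTRPV4 cells overlapped.

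A pair of genes encode proteins that associate with ion channels. CACHD1 (ENSG00000158966, chr1:64470129-64693058, plus strand), related to the alpha2delta subunits of voltage-gated calcium channels, gave 1.90, 2.46 and 2.68 CPM in SC cells at 0.77 cP, 2.97, 3.18 and 3.44 CPM in SC cells at 8 cP and 2.23, 1.82 and 1.59 CPM in shTRPV4 cells. NALF1 (ENSG00000204442, chr13:107163510-107867496, minus strand), an auxiliary protein of the sodium leak channel NALCN, gave 3.04, 2.66 and 3.22 CPM, 3.39, 3.44 and 4.07 CPM, and 2.11, 1.97 and 1.90 CPM. In NALF1 the groups were separate and the ratio to shTRPV4 cells (1.82) exceeded that between the SC groups (1.22), while in CACHD1 the lower groups overlapped (ratios 1.36 and 1.71).

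Signalling genes followed. EGF (ENSG00000138798, chr4:109912883-110013766, plus strand), the epidermal growth factor made as a membrane precursor, was measured at 3.26, 2.90 and 3.19 CPM in SC cells at 0.77 cP, at 3.73, 3.84 and 3.93 CPM in SC cells at 8 cP and at 2.23, 2.71 and 2.45 CPM in shTRPV4 cells. Its groups were separate, with ratios of 1.23 and 1.56. PRLR (ENSG00000113494, chr5:35048756-35230487, minus strand), the prolactin receptor, gave 5.72, 5.51 and 6.18 CPM, 7.10, 6.73 and 7.44 CPM, and 6.31, 5.15 and 4.69 CPM. Its shTRPV4 replicates lay on both sides of the SC replicates at 0.77 cP.

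GAREM1 (ENSG00000141441, chr18:32124877-32470882, minus strand), an adaptor between the EGF receptor and the Ras and ERK pathway, gave 2.12, 1.67 and 1.86 CPM, 2.59, 2.14 and 2.55 CPM, and 2.03, 1.56 and 1.32 CPM. Its lowest SC replicate at 8 cP exceeded the highest at 0.77 cP by a gap of 1.01 times. PDE9A (ENSG00000160191, chr21:42653621-42775509, plus strand), a phosphodiesterase with high affinity for cyclic GMP, gave 1.15, 1.04 and 0.802 CPM, 1.33, 1.23 and 1.28 CPM, and 0.946, 0.792 and 0.787 CPM. Both genes had a larger ratio to shTRPV4 cells (1.48 and 1.52) than between the SC groups (1.29 for each), and their lower groups overlapped.

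Among enzymes, LIPT2 (ENSG00000175536, chr11:74490519-74493724, minus strand), the octanoyltransferase that starts protein lipoylation in mitochondria, gave 1.11, 0.945 and 0.985 CPM, 1.31, 1.27 and 1.41 CPM, and 0.935, 1.05 and 1.12 CPM, with nearly equal ratios of 1.32 and 1.29. Its levels in shTRPV4 cells overlapped those of SC cells in base medium. B4GALNT1 (ENSG00000135454, chr12:57623409-57633239, minus strand), the enzyme that makes the gangliosides GM2 and GD2, gave 2.20, 2.18 and 2.69 CPM, 2.93, 3.08 and 2.85 CPM, and 2.10, 1.97 and 1.80 CPM, and its shTRPV4 replicates all lay below the SC replicates.

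CCPG1 (ENSG00000260916, chr15:55340032-55408510, minus strand), an endoplasmic reticulum receptor for autophagy, gave 6.89, 7.57 and 7.61 CPM, 8.67, 8.70 and 9.47 CPM, and 7.61, 7.44 and 7.13 CPM. TRIM59 (ENSG00000213186, chr3:160432445-160485773, minus strand), a ubiquitin ligase of the tripartite motif family, gave 9.04, 9.28 and 9.55 CPM, 11.5, 11.4 and 11.2 CPM, and 9.68, 10.5 and 7.58 CPM. DEPDC7 (ENSG00000121690, chr11:33015876-33033582, plus strand), a DEP domain protein, gave 0.821, 0.666 and 1.00 CPM, 1.27, 1.22 and 1.55 CPM, and 0.979, 1.03 and 0.843 CPM. In these genes the lower groups overlapped, and DEPDC7 had the larger ratio to the base medium (1.62, against 1.42 to shTRPV4 cells).

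The non-coding transcripts included the gene with the largest ratio between the SC groups. HHLA3-AS1 (ENSG00000226088, chr1:70359562-70360437, minus strand), a long non-coding RNA of unknown role, gave 1.02, 1.01 and 1.04 CPM in SC cells at 0.77 cP, 1.70, 1.86 and 1.85 CPM in SC cells at 8 cP and 1.34, 1.52 and 1.46 CPM in shTRPV4 cells. The groups were separate, and the shTRPV4 samples lay between the SC groups, which no other gene of the set showed without overlap (ratios 1.76 and 1.25). FAM225B (ENSG00000225684, chr9:113102117-113111543, minus strand), a long non-coding RNA with a near copy, FAM225A, 1499 bases away, gave 3.28, 3.02 and 3.11 CPM, 3.90, 3.58 and 4.02 CPM, and 2.56, 3.45 and 2.37 CPM. FAM225A had means of 3.80, 4.27 and 3.41 CPM in the same order, and reads could be divided between the copies.

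The unnamed transcripts sat at the lower limit of the set. ENSG00000275496 (chr21:6228966-6267317, minus strand), a long non-coding RNA, gave 1.04, 0.960 and 0.879 CPM, 1.05, 1.59 and 1.2 CPM, and 0.857, 0.934 and 0.865 CPM, so that its lowest SC replicate at 8 cP barely exceeded the SC replicates at 0.77 cP. ENSG00000279348 (chr2:216211404-216213519, plus strand), a transcript still to be experimentally classified, gave 1.14, 1.29 and 1.25 CPM, 1.34, 1.6 and 1.55 CPM, and 1.24, 1.23 and 1.21 CPM. Their other groups overlapped.

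The rule fixed that SC cells in base medium and knockdown cells in thick medium were both below the peak but not their order. This comparison was therefore tested, but it is not free of the choice of genes. The rule used the same samples and limited how high either group could stand. The comparison asks whether knockdown cells in thick medium stood at, above or below the level of control cells in base medium. It differs in hairpin and viscosity together, which cannot be told apart. Of the 27 genes, 6 were lower in shTRPV4 cells (FAT3, SLC16A7, NLGN1, EGF, NALF1 and PCDH7), 1 was higher (HHLA3-AS1) and 20 did not pass an adjusted p of 0.05 (edgeR quasi-likelihood test, Benjamini-Hochberg over 18264 genes). Of all genes tested, 22% were lower and 20.4% higher. The share of the set called lower, 6 of 27, was thus close to the background and the share called higher, 1 of 27, was below it. All genes tested were not chosen by the rule, so these shares are a description and nothing is concluded from them. The median log2 fold change of the set was -0.146, beside -0.01 over all genes tested, and 18 means were lower and 9 higher.

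The largest difference was that of NLGN1, with a log2 fold change of -1.01 (SE 0.10, adjusted p = 2.71e-06, edgeR). FAT3 was lower by a log2 fold change of -0.91 (SE 0.13, adjusted p = 3.93e-05, edgeR), PCDH7 by -0.78 (SE 0.089, adjusted p = 6.45e-06, edgeR) and NALF1 by -0.61 (SE 0.12, adjusted p = 0.000748, edgeR). These adhesion genes and the NALCN partner thus stood below the base medium level in knockdown cells, and their replicates did not overlap. SLC16A7 had a log2 fold change of -0.37 (SE 0.098, adjusted p = 0.00622, edgeR) and EGF one of -0.37 (SE 0.11, adjusted p = 0.0119, edgeR). The EGF call was lost without SC replicate 1 at 0.77 cP (adjusted p = 0.0512, edgeR) or shTRPV4 replicate 1 (adjusted p = 0.0555, edgeR), within a range of 0.00971 to 0.0555 over 16 alternatives.

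HHLA3-AS1 was higher in shTRPV4 cells than in SC cells at 0.77 cP by a log2 fold change of 0.46 (SE 0.14, adjusted p = 0.0171, edgeR), a call lost without shTRPV4 replicate 2 (adjusted p = 0.0543, edgeR) and without a filter on low counts (0.0555, with a range of 0.0159 to 0.0555 over the alternatives). Among the genes that did not pass, MMP1 had a log2 fold change of -0.64 with a 95% interval of -1.17 to -0.10 (adjusted p = 0.0518, edgeR). The value of MMP1 depended on shTRPV4 replicate 1, without which its log2 fold change was -1.15 (adjusted p = 5.29e-05, edgeR), and over the alternatives its adjusted p ranged from 3.58e-09 to 0.208. CACHD1 at -0.35 (adjusted p = 0.0806, edgeR) and B4GALNT1 at -0.30 (adjusted p = 0.0615, edgeR) came next. B4GALNT1 passed under upper quartile scaling (adjusted p = 0.0486, edgeR), within a range of 0.0486 to 0.299 over the alternatives. CACHD1 passed without SC replicate 1 at 0.77 cP (adjusted p = 0.0238, edgeR) or shTRPV4 replicate 1 (adjusted p = 0.0252, edgeR), within a range of 0.0238 to 0.312.

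For SLC7A11 the log2 fold change was 0.12 with a 95% interval of -0.07 to 0.31, and it passed the threshold only without shTRPV4 replicate 1 (0.22, adjusted p = 0.0442, edgeR, with a range of 0.0442 to 0.774 over the alternatives). CCPG1 had a narrow interval around equality, -0.18 to 0.14 on the log2 scale. PRLR and FAM225B, at -0.14 and -0.20, passed without shTRPV4 replicate 1 (-0.27, adjusted p = 0.0398, edgeR) and without shTRPV4 replicate 2 (-0.37, adjusted p = 0.0238, edgeR), respectively. Over the alternatives their adjusted p ranged from 0.0398 to 0.733 and from 0.0238 to 0.595. Replicates of the lower groups overlapped for 19 genes of the set. The shTRPV4 replicates lay entirely below for 7 genes (B4GALNT1 and the 6 called lower), where 23.5% of all genes tested did. They lay entirely above for 1, where 27.2% did. The count below was near the background and the count above was under it, but the rule limited how high shTRPV4 cells could stand. The plot of these fold changes shows the genes in order.

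**Figure D3:**
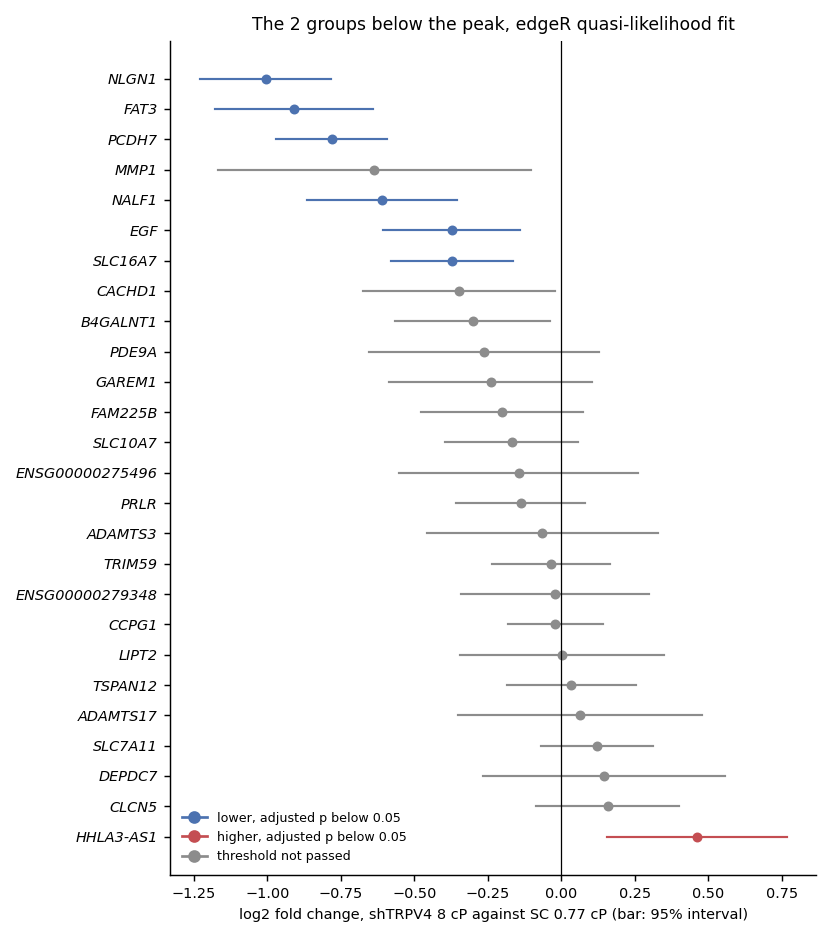
Each line is 1 of 26 genes of the set, placed at its log2 fold change of shTRPV4 at 8 cP over SC at 0.77 cP (horizontal axis), with bars for the 95% interval of the edgeR fit and colours for genes that passed an adjusted p of 0.05 and those that did not. NLGN1 at -1.01 and HHLA3-AS1 at 0.46 mark the ends, and 19 genes in grey did not pass.

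Relatives of these genes did not share the peak in general. Families were formed after the set was known, and the relatives named here were chosen after their values were seen. In 16 families holding 17 genes of the set, 80 other genes had at least 1 CPM in a group, and 14 of these (17.5%) had their highest mean in SC cells at 8 cP, beside 18.7% of all tested genes at that level. Both other FAT cadherins did so, with FAT1 at 257, 275 and 242 CPM and FAT4 at 69.9, 71.4 and 55.4 CPM in the same order of groups. Of 8 other matrix metalloproteinases only MMP16 (2.44, 3.92 and 3.87 CPM) and MMP17 (2.43, 2.78 and 2.47 CPM) did, and MMP14, the main membrane-bound collagenase, went from 962 to 929 to 846 CPM.

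None of 15 other tetraspanins and none of 5 other SLC7 transporters peaked there. SLC7A5, the large neutral amino acid transporter, went from 269 to 406 to 613 CPM, so that it was highest in the group where SLC7A11 was again low. CACNA2D1, the alpha2delta relative of CACHD1, went from 9.49 to 13.2 to 25.3 CPM. PCDH1, the other expressed non-clustered protocadherin, gave 16.99, 13.4 and 26.1 CPM, and NLGN2 gave 49.7, 44.4 and 51.5 CPM, both lowest where PCDH7 and NLGN1 were highest. NALCN itself stayed between 2.53 and 2.79 CPM, while its partner NALF1 was lowest in shTRPV4 cells. These differences between relatives were not tested.

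**Figure D4:**
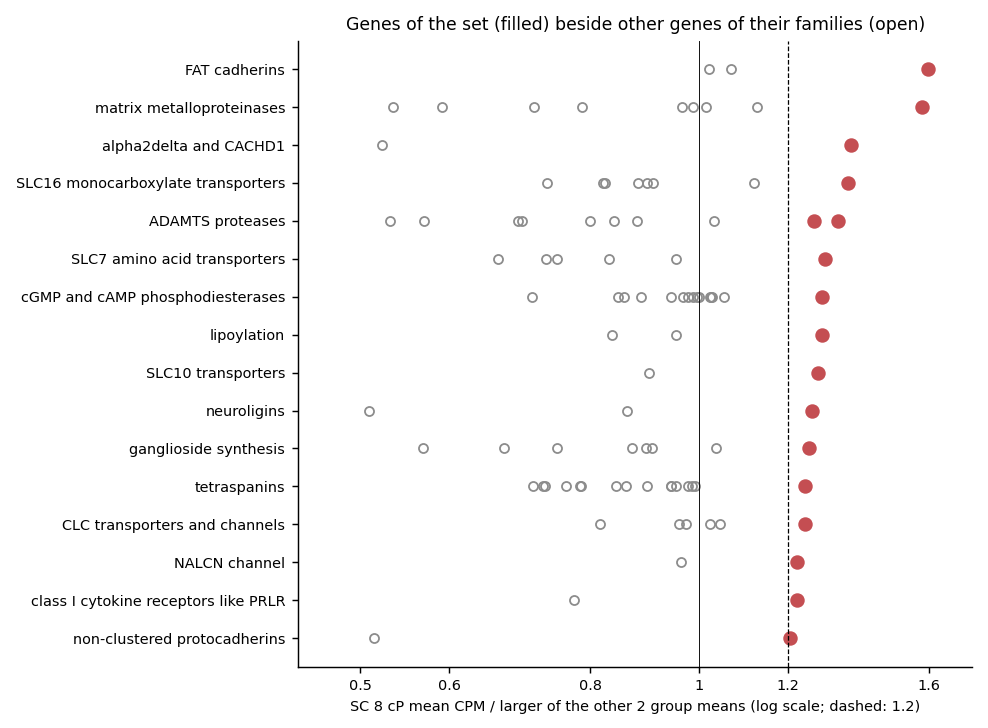
Each row is a gene family, with genes of the set as filled points and other family genes with at least 1 CPM as open points. The horizontal axis, on a log scale, is the SC mean at 8 cP divided by the larger of the other group means, with a line at 1 and a dashed line at 1.2. All filled points lie to the right of 1.2 by the rule, and 14 of the 80 open points lie to the right of 1.

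The 24 pathway lists, of genes tied to viscosity, calcium, adhesion, metabolism and stress, held 481 tested genes but only 3 genes of the set (MMP1, SLC7A11 and PCDH7). The lists were chosen with earlier results of these data known. Their counts beside all genes are thus a description, with no test. In SC cells, 72 list genes were higher and 151 lower at 8 cP than at 0.77 cP, where 9.57% of all genes tested were higher and 9.69% lower. Between SC and shTRPV4 cells at 8 cP, 131 were higher and 63 lower in SC cells, where 11% and 9.02% of all genes were. In both comparisons 10 of the 481 were higher in SC cells at 8 cP, where 0.515% of all genes tested (94 genes) were. These were STMN1, YAP1, CENPE, CRIM1, SLC7A11, TPM4, AXL, PCDH7, ELOVL6 and NQO1, of which SLC7A11 and PCDH7 reached the ratio of 1.2 to both groups. The rule chose MMP1, SLC7A11 and PCDH7 on these values, so nothing is read from their calls here or in the counts of their lists, and the comparisons share the SC samples at 8 cP.

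The lists around genes of the set moved in several directions. In the list of matrix proteases and the plasminogen system (16 tested), 1 gene was higher and 2 were lower in SC cells at 8 cP than at 0.77 cP, and 4, MMP1 among them, were higher and 3 lower in SC than in shTRPV4 cells at 8 cP. SERPINE2, an inhibitor of plasminogen activators, had group means of 24.2, 24.7 and 15.7 CPM. In axon guidance and cell adhesion (24 tested), 1 gene was higher and 6 were lower with viscosity in SC cells, and 10 were higher and 2 lower in SC than in shTRPV4 cells at 8 cP. The single gene in the first count and 1 of the 10 in the second were PCDH7, which the rule had chosen on these values. NTN4, a netrin, had 39.6, 42.7 and 30.5 CPM and ROBO1, a Slit receptor, 7.35, 8.45 and 4.29 CPM, with log2 differences between SC and shTRPV4 cells at 8 cP of 0.51 and 1.00.

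In the list of amino acid supply and stress response (20 tested), 5 genes were higher and 3 lower at 8 cP in SC cells, and 6 were higher and 2 lower in SC than in shTRPV4 cells at 8 cP, SLC7A11 being among the higher genes in both counts by the rule. SLC3A2, the heavy chain that carries SLC7A11 and SLC7A5 to the membrane, went from 230 to 276 to 342 CPM and was thus highest in knockdown cells. ATF3, a stress-induced transcription factor, had 73.3, 12.97 and 12.3 CPM. In the antioxidant and metallothionein list (15 tested), 8 genes were higher and none lower at 8 cP in SC cells, and 3 were higher and 1 lower in SC than in shTRPV4 cells, again with SLC7A11 among the higher genes in both counts by the rule. GCLM, a subunit of the enzyme that starts glutathione synthesis, had 79.9, 102 and 103 CPM, so that its mean in knockdown cells stood beside that of SC cells at 8 cP, whereas that of SLC7A11 stood below, a difference between the genes that was not tested. Among 9 other EGF receptor ligands and receptors, none was higher and 4 were lower at 8 cP in SC cells. HBEGF (142, 91.9 and 107 CPM), AREG (280, 156 and 119 CPM) and EREG (44.5, 38.8 and 27.5 CPM) had their highest mean in SC cells at 0.77 cP, unlike EGF.

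A property that the rule did not use was the length of the genes. From start to end, the 23 protein-coding genes of the set spanned a median of 176640 bases, compared with 34514 bases for the 11675 protein-coding genes with at least 1 CPM in SC cells at 8 cP. At similar levels (1 to 12 CPM) the median was 31573 bases. More than 100 kb was spanned by 14 of the 23 (60.9%), compared with 20.1% of all and 20.6% of those at 1 to 12 CPM, and more than 500 kb by 3 (13%), compared with 1.17%. These 3 were NLGN1 (898089 bases), NALF1 (703987 bases) and FAT3 (671656 bases). Of the 120 protein-coding genes lowest in SC cells at 8 cP under the mirrored rule, 7.5% exceeded 100 kb.

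All 6 genes that were lower in shTRPV4 cells at 8 cP than in SC cells at 0.77 cP spanned more than 100 kb, from 100884 to 898089 bases. Of 2347 expressed protein-coding genes over 100 kb, 24.2% were lower and 29.6% higher in that comparison, against 27.7% and 27.5% of shorter genes. In SC cells, 15.7% of the genes over 100 kb were higher at 8 cP than at 0.77 cP and 7.58% lower, against 13.9% and 13.1% of shorter genes. Between SC and shTRPV4 cells at 8 cP, 17.3% of the genes over 100 kb were higher in SC cells and 12.4% lower, against 14.3% and 11.3% of shorter genes. Differences between these shares were not tested. The part of gene length in the choice of the set was not tested.

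**Figure D5:**
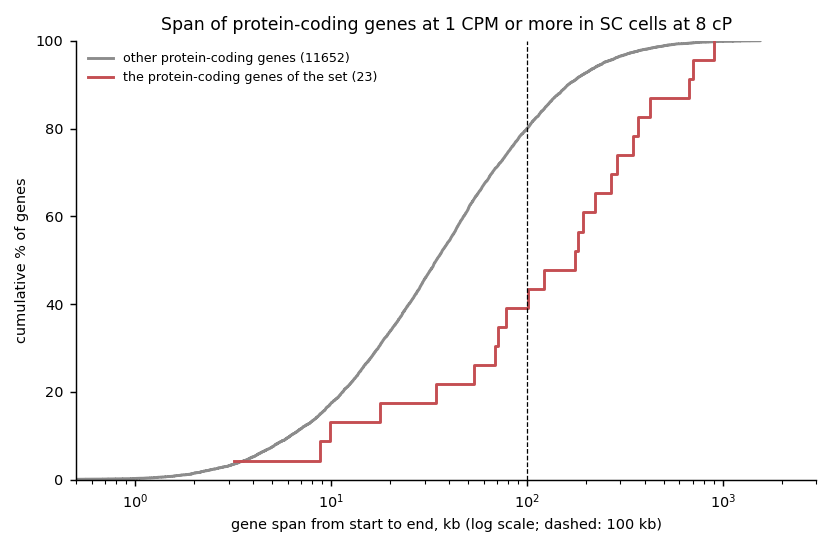
Cumulative percentage of protein-coding genes (vertical axis) by gene span in kb (horizontal axis, log scale, dashed line at 100 kb). The curve of the 23 protein-coding genes of the set lies to the right of the curve of the other such genes with at least 1 CPM in SC cells at 8 cP. Beyond 100 kb lay 60.9% of the 23 genes, against 20.1% of all 11675 such genes, the set included.

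By position, 5 of the 27 genes lay on chromosome 4 (18.5%, compared with 3.81% of genes with at least 1 CPM), and these were ADAMTS3, SLC7A11, SLC10A7, EGF and PCDH7, which were not adjacent. A further 4 lay on chromosome 11 (14.8% compared with 5.57%), namely FAT3, MMP1, DEPDC7 and LIPT2. Of the 54 nearest expressed neighbours on either side, 18 (33.3%) had their highest mean in SC cells at 8 cP, compared with 18.7% of all tested genes at that level. Most neighbours thus did not share the peak, but a larger share did than among all tested genes. The neighbours lay from 127 bases (POLD3, beside LIPT2) to 5524145 bases (ARAP2, beside PCDH7) away, so many were not close. ARAP2 was among those that shared the peak. Neighbours that shared it also included FAM225A, the near copy of FAM225B, and ENSG00000275895, which is annotated as an artifact. The difference in shares was not tested.

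Some genes of the set overlap others in the annotation, and whether counting used strand was not given in the sources used here. Exon bases were shared with a gene on the other strand by 12 of the 27 genes. TRIM59 shared 1553 bases with SMC4, whose means were 193, 224 and 233 CPM, far above those of TRIM59 itself. CCPG1 shared 443 bases with PIGB (9.98, 9.69 and 8.51 CPM). LIPT2 shared 359 bases with LIPT2-AS1, whose means of 2.46, 2.34 and 2.78 CPM were above those of LIPT2 itself. Within these shared bases, reads of the partner on the other strand cannot be told apart from those of the gene unless strand was used. Whether such reads entered the values of these genes was not tested. On the same strand, CCPG1 shared 3405 bases with DNAAF4-CCPG1 and TRIM59 1095 bases with ENSG00000248710, both partners at 0 CPM in each group mean. Strand cannot separate reads from those bases. For 15 genes of the set no exon base was shared with another gene.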

How the data were processed

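Reads of 100 bases from strand-specific libraries of MDA-MB-231 RNA were aligned by the authors with HISAT2 (version 2.2.1) to GRCh38.p13 and counted per gene with HTSeq (version 0.13.5) on Ensembl release 104, with SAMtools (version 1.1.3) and DESeq also named in the submitters' processing notes. The deposited files hold raw counts, 1 file per sample, with 60664 genes in each. The HTSeq strand setting is not given in the sources used here.

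CPM was computed on the total count of each file (64571681 to 103518036). The lowest count of a gene of the set in any sample was 43. Symbols were matched for 60463 genes, and positions, spans and exon lengths were taken from GENCODE release 44 (GRCh38). Tests used the quasi-likelihood test of edgeR (version 4.0.16, R version 4.3.3) with TMM scaling, filterByExpr (18264 genes kept), 1 coefficient for each of the 3 groups and Benjamini-Hochberg adjustment over all genes tested, with an adjusted p of 0.05 as the threshold. The script was tested on simulated counts. Alternatives were DESeq2 (version 1.42.0), other scalings and filters, a replicate block, a further threshold of 1.2-fold and removal of each sample. Python (version 3.11.15) with pandas (version 2.3.3) was used for the rest.

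The members and the gene lists were chosen with earlier results of these data known. Members were named by the largest ratios, the highest levels, the smallest adjusted p, their place in a list or nearness to the fold limit, and the rest in groups of like function, so that 26 of the 27 were named. The remaining member is counted but not reported here by name. Of other genes, at most 3 per pathway list were named, those with the smallest adjusted p in a comparison discussed, and neighbours and relatives were named after their values were seen. Replicates differed beyond sampling noise (chi-square per degree of freedom of 6.27 to 28.9), so no library was counted as a duplicate. Promoter letters are those of RefSeq on GRCh38.p14.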

Additional observations from a re-analysis of the deposited data

How the results depend on the processing

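The number of genes in the set depended on the limits, as their construction fixes. It was 2 with a fold limit of 1.5, 11 with a minimum of 5 CPM, 71 with a minimum of 0.1 CPM, 59 without the requirement on single replicates, 370 without a fold limit and 94 (12 of them shared) with an adjusted p below 0.05 in edgeR in both comparisons in place of the rule. With TMM-scaled totals it was 31, all 27 included. Leaving out 1 sample gave 25 to 54 genes, with 50 without SC replicate 3 at 0.77 cP, 54 without SC replicate 1 at 8 cP, 53 without SC replicate 2 at 8 cP and 41 without shTRPV4 replicate 1. In the test of shTRPV4 at 8 cP over SC at 0.77 cP, 7 to 10 genes of the set passed when 1 sample was left out, and 7 to 9 under the other alternatives. FAT3, SLC16A7, NLGN1, NALF1 and PCDH7 passed in all 16 alternatives.

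List genes called between the SC groups numbered 223, 146 under a further threshold of 1.2-fold and 145 to 252 when 1 sample was left out (145 without SC replicate 1 at 0.77 cP, 147 without SC replicate 3 at 8 cP). Between SC and shTRPV4 cells at 8 cP there were 194 (151 to 205 with 1 sample left out), and for shTRPV4 at 8 cP over SC at 0.77 cP there were 346 (309 to 345). Log2 fold changes near 0 changed sign in the latter comparison, LIPT2 under upper quartile scaling (-0.014) and 7 genes when 1 sample was left out, over the ranges -0.203 to 0.0697 (ADAMTS3), -0.0677 to 0.0763 (LIPT2), -0.0764 to 0.212 (ADAMTS17), -0.0648 to 0.103 (TSPAN12), -0.132 to 0.0852 (TRIM59), -0.0674 to 0.0179 (ENSG00000279348) and -0.0615 to 0.0160 (CCPG1), and none of these passed the threshold. The cause of these changes was not tested.

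Deviations of same-numbered samples from their group means correlated at -0.055 to 0.090, against -0.106 to 0.115 for samples with different numbers. No shared deviation by replicate number was thus seen. Whether same-numbered samples were handled together cannot be told from these correlations. In a fit with a replicate block, 7 genes of the set were called, and 220, 190 and 342 list genes in the order of comparisons above. Levels near 1 CPM limit the precision for ADAMTS3, ADAMTS17, PDE9A, LIPT2, DEPDC7 and the unnamed transcripts, and the spread of shTRPV4 replicates limits it for MMP1. With 3 samples a group, an exact permutation test of a single gene could not go below a p of 0.1.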
